A study of Mus musculus with 6 samples.

Results

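The ligand, the receptors, the SMAD proteins and the feedback genes of the transforming growth factor beta (TGF-beta) pathway were followed in splenic dendritic cells with and without the kinase TAK1. The set was chosen by gene symbol and held Tgfb1, Tgfbr1, Tgfbr2, Smad2, Smad3, Smad4, Smad6, Smad7, Skil and Pmepa1. Of these 10 genes 9 had a probe set under their symbol in the annotation used, and Pmepa1 was not analysed here. The 9 genes had 18 probe sets among 45037 tested on the array, and they were 9 of 17097 named genes. The cells were CD11c+ dendritic cells sorted by flow cytometry from the spleens of C57Bl/6 mice. The knockout group came from mice with the genotype Map3k7CreER, and the other group from wild-type mice. Tamoxifen was given in vivo for 3 days to mice of both groups. Each group had 3 samples, and 100 ng of RNA from each sample was labelled and hybridised to its own Affymetrix array. CreER is a Cre recombinase that tamoxifen switches on. The labels do not name the promoter that drives it, do not say whether its action was limited to dendritic cells, and do not say whether each sample came from 1 animal. Deletion of Map3k7, the Cre transgene and changes in the rest of the mouse therefore cannot be told apart, and the p-values cover only the spread among these samples, which may be technical.

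TGF-beta is secreted in a latent form and, once released, binds the type II receptor Tgfbr2, which recruits and phosphorylates the type I receptor Tgfbr1. The type I receptor then phosphorylates Smad2 and Smad3, which join Smad4 and enter the nucleus to regulate transcription. The inhibitory SMADs Smad6 and Smad7 and the SMAD corepressor SnoN, encoded by Skil, restrain the pathway, and several of these inhibitors are themselves induced by it. The same receptors also reach TAK1, the product of Map3k7, through the ubiquitin ligase TRAF6, so that TAK1 forms a second, SMAD-independent arm. In dendritic cells TGF-beta is known for restraining activation and for inducing the integrin alpha E chain, Itgae.

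The arrays bore out the labels. All values are log2 signals after robust multi-array averaging (RMA), a scale on which 1 unit is a 2-fold change, and the array medians lay between 3.77 and 3.81. A signal near these medians may come from a transcript that is not expressed. On its brightest probe set Map3k7 read 4.04, 4.46 and 3.64 in knockout cells, against 6.68, 6.69 and 6.57 in wild-type cells. The difference was -2.60 (SE 0.19, limma, Benjamini-Hochberg adjusted p = 0.00128), and the groups did not overlap. Of 13 dendritic cell markers 12 were measured, 0 of these lay below the median level, and their mean log2 signal was 10.52 to 10.58 on the knockout arrays and 10.72 to 10.84 on the wild-type arrays. Among 11 macrophage markers 3 rose, Cd163, Cd5l and Mertk, where 1.08% of all genes were called higher. At an unadjusted p under 0.05 the count was 7 of 11, against 16.4% of all genes, while Adgre1 stood at -0.28 and Cd68 at -0.19 without passing. The mean log2 signal of that list was 7.28 to 7.83 in knockout cells and 6.94 to 7.05 in wild-type cells. The 7 platelet markers averaged 3.59 to 3.68 in knockout cells and 3.56 to 3.65 in wild-type cells, about the level of the array medians, and 4 of them lay below the median level. The 5 measured erythroid markers averaged 3.79 to 4.23 in knockout cells and 4.65 to 5.27 in wild-type cells. That gap came mostly from the globin Hba-a1, at 7.02, 7.09 and 4.81 in knockout cells and 10.41, 10.73 and 8.49 in wild-type cells, which did not pass (limma adjusted p = 0.0713). The other 4 erythroid markers lay near the array medians and differed by -0.34 to -0.24.

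None of the 18 probe sets of the pathway's core genes passed the test. At an adjusted p under 0.05 (limma, Benjamini-Hochberg over all probe sets) the knockout differed from wild type at 0 of 18, where 1.19% of all probe sets tested did. At an unadjusted p under 0.05 the count was 1 of 18, against 12.3% of all probe sets, and the groups did not overlap at 1 of 18, against 17.5% of all probe sets. That probe set was the brightest of Tgfbr2. The smallest adjusted p of the 18 was 0.176. Taking each gene by its brightest probe set, 8 of the 9 genes lay above the median level, Smad6 being the exception. The differences of these 8 had a median of 0.04, with 6 positive and 2 negative. Each gene's own 95% interval, not corrected for the number of genes, lay within -1 and 1 for these 8 genes, so none of these intervals reached a 2-fold change in either direction. No such bound is read for Smad6, whose signal was too dim. For 3 of the 8 brighter genes the interval also stayed within -0.5 and 0.5. A missed threshold does not show that levels were equal. Given each gene's own spread, a difference of between 0.61 and 1.67 would have been needed to pass.

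**Figure D1:**
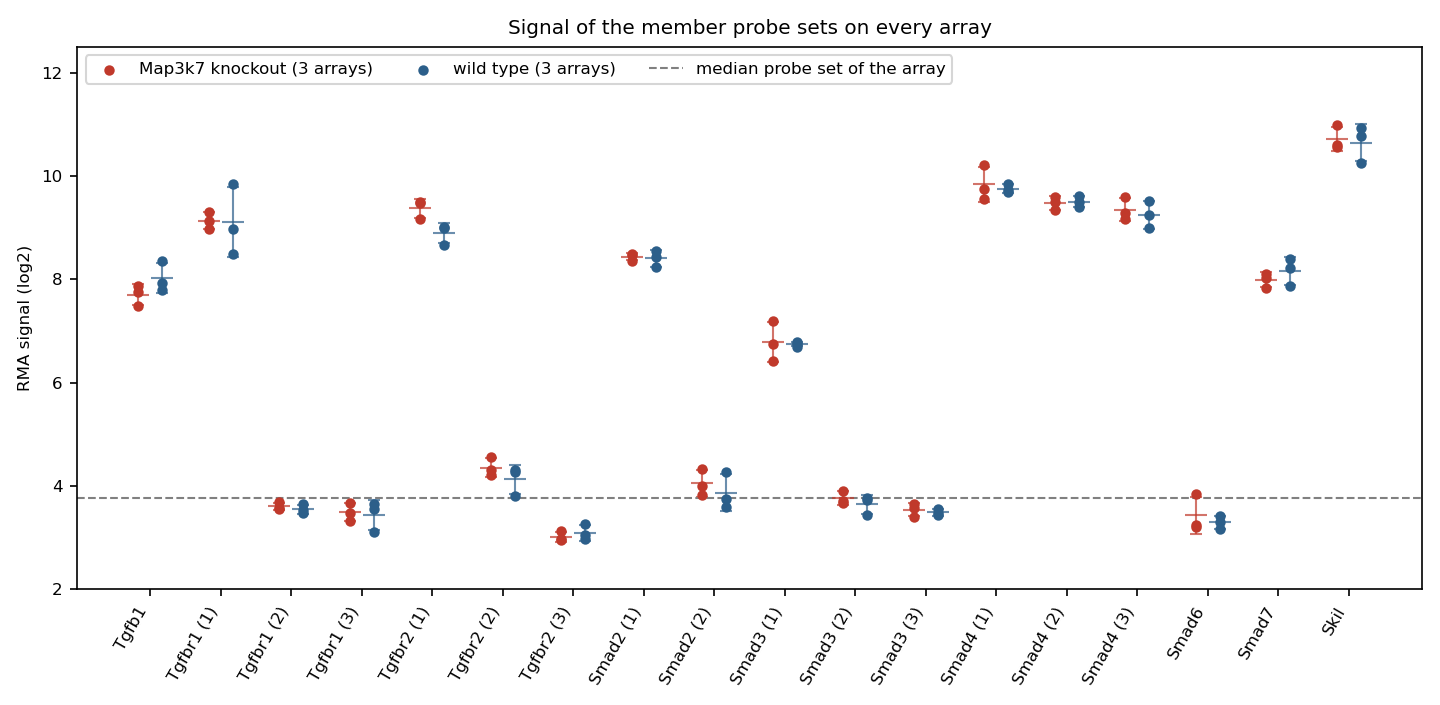
Log2 RMA signal (vertical axis) of the 18 probe sets of the 9 core genes, with numbers in brackets for probe sets of 1 gene from bright to dim; each point is an array, red for the 3 knockout and blue for the 3 wild-type arrays, with bars for mean ± SD. The groups overlap for every probe set except the brightest of Tgfbr2, and 6 of the 18 probe sets lie below the dashed line at the median level.

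Among the receptors, Tgfbr2 had the largest difference of the set. Its bright probe set read 9.17, 9.48 and 9.50 on the knockout arrays, against 9.001, 8.67 and 9.01 on the wild-type arrays. Every knockout array lay above every wild-type array, although knockout replicate 1 was within 0.2 of wild-type replicates 1 and 3. The means were 9.38 ± 0.18 in knockout cells and 8.90 ± 0.19 in wild-type cells (SD, n = 3 each), a difference of 0.48 (SE 0.14, 95% interval 0.17 to 0.80), or 1.40-fold, with an adjusted p of 0.176 in limma. Tgfbr2 did not pass under any of the 14 alternative settings, where the difference ranged from 0.21, as the mean of its 3 probe sets, to 0.59. The second Tgfbr2 probe set, at 4.36 ± 0.18 in knockout and 4.13 ± 0.28 in wild-type cells (SD, n = 3 each), differed by 0.23 (SE 0.16), and the third lay below the median level in both groups.

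Tgfbr1, the type I receptor and the kinase that activates the SMADs, varied more between replicates than between groups. Its bright probe set read 9.13, 9.31 and 8.97 in knockout cells, against 8.98, 8.50 and 9.85 in wild-type cells. The knockout arrays all fell inside the wild-type range, whose highest and lowest arrays were wild-type replicates 3 and 2. The difference was 0.03 (SE 0.30, 95% interval -0.67 to 0.72, limma adjusted p = 0.987), and its sign turned without wild-type replicate 2 (-0.28), wild-type replicate 1 (-0.04) or knockout replicate 2 (-0.06). Without wild-type replicate 3 it was 0.40. The other Tgfbr1 probe sets were dim, at means of 3.61 and 3.49 in knockout cells and 3.55 and 3.44 in wild-type cells. Bulk signal cannot tell fewer cells with a transcript from less transcript per cell.

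The ligand gene Tgfb1 had the lowest difference. It read 7.75, 7.88 and 7.48 in knockout cells, against 7.79, 8.36 and 7.94 in wild-type cells. Knockout replicate 3 was the lowest array and wild-type replicate 2 the highest, and the groups overlapped, since knockout replicate 2 exceeded wild-type replicate 1. The difference of -0.33 (SE 0.17, 95% interval -0.72 to 0.06) did not pass (limma adjusted p = 0.508). It was -0.16 without wild-type replicate 2 and -0.45 without wild-type replicate 1. Platelets store the protein, and the platelet markers were near the array medians in both groups, as given above.

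Upstream sequences are printed for Tgfbr2 and Tgfb1, the 2 core genes with the largest differences, and for Tgfbi, a gene induced by TGF-beta that rose in the knockout, so that their starts can be set beside their signals. Each runs from 250 bases before to 50 bases after the gene's start, 5′ to 3′ on the gene's strand, from RefSeq on GRCm38.p6. The table held windows for 5 of the 10 core genes. Tgfbr2 lies at chr9:116175314-116175613 on the minus strand, Tgfb1 at chr7:25686752-25687051 on the plus strand and Tgfbi at chr13:56609336-56609635 on the plus strand. Capitals mark the SMAD box, searched as CAGAC and, on the other strand, GTCTG.
Tgfbr2: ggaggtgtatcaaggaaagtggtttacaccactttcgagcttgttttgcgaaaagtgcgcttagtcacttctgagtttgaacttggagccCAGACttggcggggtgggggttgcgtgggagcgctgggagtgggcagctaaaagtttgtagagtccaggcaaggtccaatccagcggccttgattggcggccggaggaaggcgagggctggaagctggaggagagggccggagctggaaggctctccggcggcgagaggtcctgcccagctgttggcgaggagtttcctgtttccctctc
Tgfb1: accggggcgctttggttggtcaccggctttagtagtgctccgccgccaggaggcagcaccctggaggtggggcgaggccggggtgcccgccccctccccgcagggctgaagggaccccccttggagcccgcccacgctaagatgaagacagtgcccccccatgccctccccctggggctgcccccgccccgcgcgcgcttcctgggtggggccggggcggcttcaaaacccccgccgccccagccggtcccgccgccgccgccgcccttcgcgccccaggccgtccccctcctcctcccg
Tgfbi: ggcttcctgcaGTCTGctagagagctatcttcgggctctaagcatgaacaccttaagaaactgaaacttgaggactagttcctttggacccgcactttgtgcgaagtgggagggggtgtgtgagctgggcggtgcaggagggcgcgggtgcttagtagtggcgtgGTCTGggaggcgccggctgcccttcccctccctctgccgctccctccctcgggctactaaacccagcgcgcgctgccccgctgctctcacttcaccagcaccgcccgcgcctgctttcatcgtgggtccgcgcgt
The Tgfbr2 window held 1 match, which began 160 bases before the start, and the Tgfbi window held 2, which began 239 and 85 bases before it. The Tgfb1 window held 0 matches. So short a motif is frequent, and 49.6% of 32851 windows of the same length held it, so a match is a description of letters and not a site of binding.

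The receptor-regulated SMADs, which carry the signal from receptor to nucleus, differed by less than the replicate spread. Smad2 read 8.36, 8.48 and 8.49 in knockout cells, against 8.44, 8.24 and 8.56 in wild-type cells, and all knockout arrays lay inside the wild-type range. Its difference was 0.03 (SE 0.11), and its interval of -0.23 to 0.29 was the narrowest of the brighter genes. Without wild-type replicate 2 it turned to -0.06. The second Smad2 probe set lay near the median level, at 4.05 ± 0.26 in knockout and 3.88 ± 0.36 in wild-type cells (SD, n = 3 each).

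Smad3 read 6.76, 6.43 and 7.20 in knockout cells, against 6.76, 6.70 and 6.79 in wild-type cells. The wild-type arrays lay within 0.1 of each other, while knockout replicates 2 and 3 lay below and above all of them. The SDs were accordingly 0.39 in knockout and 0.04 in wild-type cells, and the difference in means was 0.05 (SE 0.18, 95% interval -0.37 to 0.47). It was -0.16 without knockout replicate 3 and 0.23 without knockout replicate 2. Whether the spread itself differed between the groups was not tested. The other 2 Smad3 probe sets lay below the median level.

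Smad4, the common partner of the receptor-regulated SMADs, had 3 bright probe sets. The brightest read 9.56, 9.75 and 10.22 in knockout cells, against 9.86, 9.74 and 9.68 in wild-type cells. Knockout replicate 3 was the highest and knockout replicate 1 the lowest of the 6 arrays. The 3 probe sets gave differences of 0.08 (SE 0.17), -0.03 (SE 0.11) and 0.10 (SE 0.17), with limma adjusted p between 0.886 and 0.961, and so did not share a sign. On the brightest the sign turned without knockout replicate 3, at -0.11, and with array weights, at -0.0031.

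**Figure D2:**
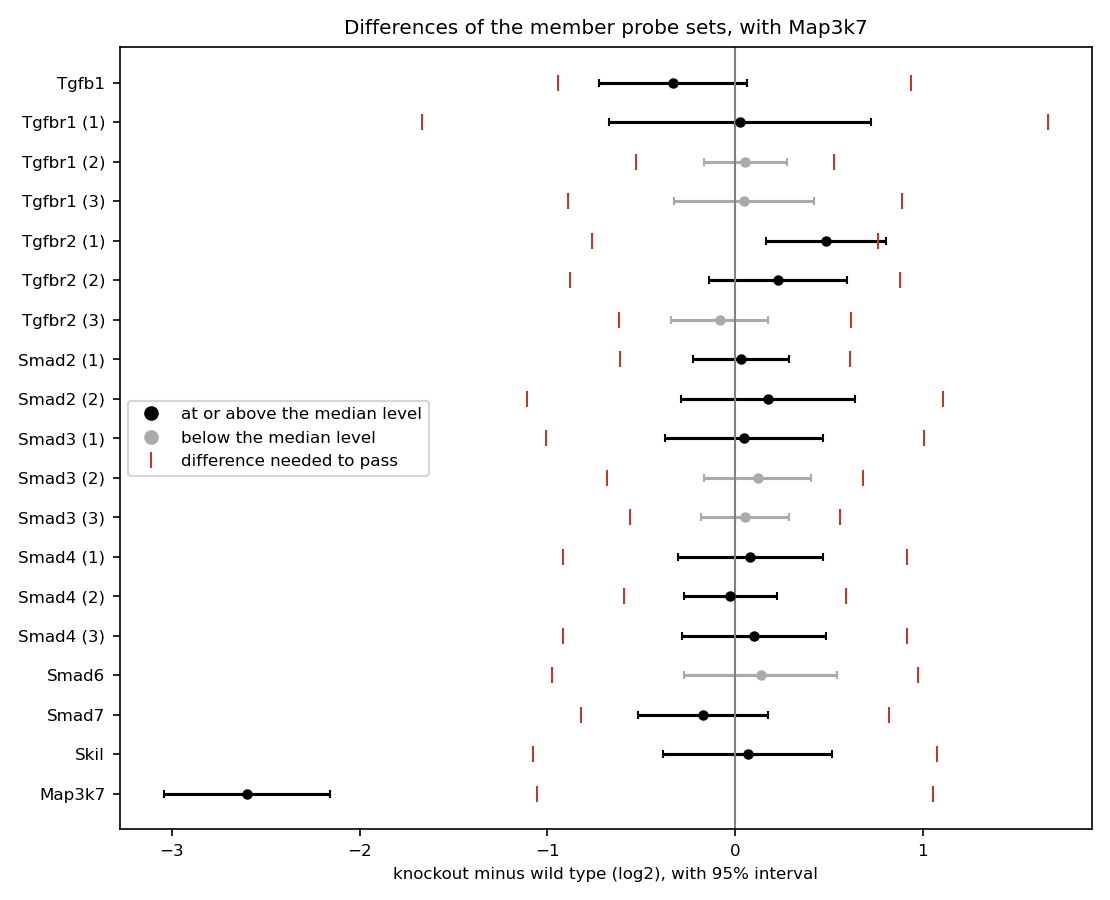
Difference of knockout minus wild type on the log2 scale (horizontal axis) for the 18 probe sets of the core genes and the brightest of Map3k7, with 95% intervals from limma over 6 arrays; black marks probe sets no dimmer than the median level, grey those below it, and red ticks the difference each would have needed to pass. No core gene's point reaches its tick, while Map3k7 at -2.60 lies far past it.

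Of the inhibitory genes, Smad7, which blocks the type I receptor and brings ubiquitin ligases to it, read 8.03, 7.83 and 8.11 in knockout cells, against 8.22, 7.88 and 8.39 in wild-type cells. The groups overlapped, and the lowest wild-type array was again replicate 2. The difference was -0.17 (SE 0.15, 95% interval -0.51 to 0.17, limma adjusted p = 0.749). It was -0.31 without wild-type replicate 2 and -0.06 without wild-type replicate 3. Skil, whose product SnoN binds Smad2, Smad3 and Smad4 and represses their targets, read 10.60, 10.57 and 10.99 in knockout cells, against 10.78, 10.25 and 10.92 in wild-type cells. Its difference was 0.07 (SE 0.19, 95% interval -0.38 to 0.52, limma adjusted p = 0.94) and turned to -0.14 without wild-type replicate 2 and to -0.07 without knockout replicate 3. Smad6, the inhibitor tied mainly to bone morphogenetic protein receptors, was dim on its 1 probe set, at 3.85, 3.21 and 3.25 in knockout cells and 3.17, 3.31 and 3.41 in wild-type cells. At that level the array does not show whether Smad6 was expressed. Its difference of 0.14 (SE 0.18) turned to -0.07 without knockout replicate 1.

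Arrays of 1 group differed from each other in several core genes at once. Among wild-type arrays, replicate 2 was the lowest for 6 of the 8 brighter core genes, where it was the lowest for 32.4% of the 10512 genes at or above the median level. Wild-type replicate 3 was the highest for 6 of the 8, against 33.4% of those genes. Among knockout arrays, replicate 3 was the highest for 6 of the 8, against 31.8% of those genes. Tgfb1 ran the other way, highest on wild-type replicate 2 and lowest on knockout replicate 3. The within-group SD of the 8 genes had a median of 0.25 and ranged from 0.13 for Smad2 to 0.50 for Tgfbr1, while the median over the 10512 genes was 0.18. Genes measured on the same array are not independent, and the labels name no batch to set these arrays apart.

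**Figure D3:**
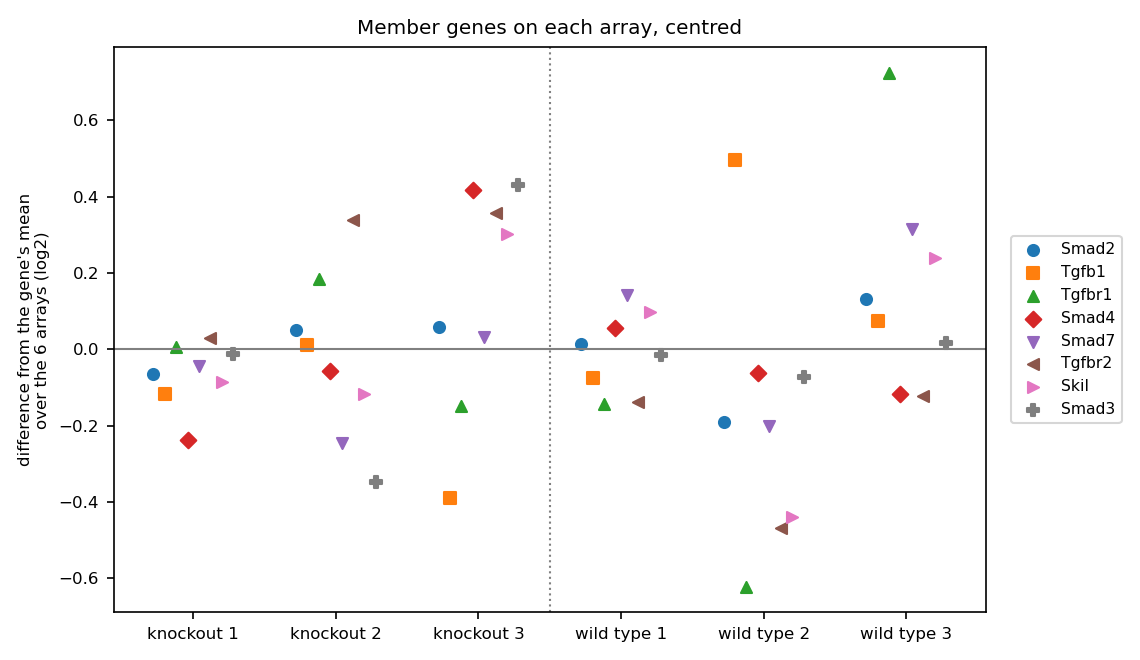
Log2 signal of the 8 brighter core genes on each array, as the difference from the gene's own mean over the 6 arrays (vertical axis), with the 3 knockout arrays left of the dotted line and the 3 wild-type arrays right of it. On wild-type replicate 2 the genes lie below 0 except Tgfb1 at 0.50, and on knockout replicate 3 they lie above 0 except Tgfb1 at -0.39 and Tgfbr1 at -0.15.

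Tgfbr2 had the smallest p of the set. The genes whose centred signals were closest to it over the 6 arrays were sought among the rest of the 10512 genes at or above the median level. These were the ubiquitin ligase gene Marchf1, Sertad2 and Lrrc8d, with root mean square differences of 0.05 on the log2 scale. Marchf1 read 10.20, 10.56 and 10.54 in knockout cells, against 10.12, 9.84 and 10.07 in wild-type cells. The differences of the 3 genes were 0.42, 0.51 and 0.58, and 0 of them passed (limma adjusted p = 0.222 for Marchf1, 0.215 for Sertad2 and 0.113 for Lrrc8d). Because these genes were chosen for closeness to Tgfbr2, differences near that of Tgfbr2 follow from the choice and are a description only.

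The rest of the pathway was read from 72 further genes in 6 lists, of which 71 are left once Map3k7 is set aside. Of these 71 genes 64 were measured, 2 rose, 0 fell and 62 did not pass, where 1.08% of all 17097 genes were called higher and 0.591% lower. At an unadjusted p under 0.05 the count was 17 of 64, against 16.4% of all genes. The median difference of the 64 was 0.09, and that of all genes was -0.02. The genes that rose were Itgae and Tgfbi, both from the list of 15 genes taken here as induced by TGF-beta. Of that list 13 were measured, 10 had a positive and 3 a negative difference, where 46.1% of all genes had a positive one, and the median was 0.40. At an unadjusted p under 0.05 the list counted 7 of 13, beside the 16.4% of all genes. These 7 included Bhlhe40, which was lower in the knockout, at -0.45. Earlier results of these data had already shown Itgae and Tgfbi as higher, and the list was chosen with those results known. Their presence here, and the counts and median of the list that includes them, are therefore a description and not independent evidence.

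Itgae, the integrin chain known as CD103 that pairs with beta 7 and binds E-cadherin, read 9.84, 9.999 and 9.23 in knockout cells, against 7.44, 8.22 and 8.04 in wild-type cells. The groups lay apart by about 1 unit, and the difference was 1.79 (SE 0.25, 95% interval 1.21 to 2.37, limma adjusted p = 0.0211), or 3.46-fold. It no longer passed without knockout replicate 2 (1.63, adjusted p = 0.106) or wild-type replicate 1 (1.56, adjusted p = 0.071). Itgae also marks a subset of dendritic cells. Of the 12 measured dendritic cell markers 0 passed in limma, and 6 had an unadjusted p under 0.05, against 16.4% of all genes. Among the 12, 10 had a negative and 2 a positive difference, where 46.1% of all genes had a positive one. The smallest p belonged to Zbtb46, at -0.75 (limma adjusted p = 0.0621). Xcr1, a chemokine receptor of cross-presenting dendritic cells, read 10.37, 10.58 and 10.15 in knockout cells, against 11.22, 11.57 and 10.74 in wild-type cells, a difference of -0.81 that did not pass (limma adjusted p = 0.14). Batf3, a transcription factor that these cells require, differed by -0.16 (adjusted p = 0.635). Irf8, a transcription factor of the same subset, stood at -0.59 (adjusted p = 0.121), and Dpp4, a peptidase on its surface, at 0.32 (adjusted p = 0.367).

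Tgfbi, a secreted matrix protein that binds integrins, read 12.14, 12.32 and 12.56 in knockout cells, against 11.39, 11.37 and 11.62 in wild-type cells. All knockout arrays exceeded all wild-type arrays, with a difference of 0.88 (SE 0.13, limma adjusted p = 0.0265). Its second probe set gave 1.07 (SE 0.15, adjusted p = 0.0226). With 1 array left out the brighter probe set stayed past the threshold in 2 of 6 fits. It did not pass without knockout replicate 2 (0.89, adjusted p = 0.123), knockout replicate 3 (0.77, adjusted p = 0.0549), wild-type replicate 1 (0.85, adjusted p = 0.119) or wild-type replicate 2 (0.84, adjusted p = 0.11). Macrophages and monocytes also make Tgfbi. The macrophage list was higher in the knockout, as given above, and the monocyte list averaged 8.16 to 8.22 in knockout cells and 7.67 to 7.91 in wild-type cells, with Cd14 the 1 of its 8 genes that rose, where 1.08% of all genes were called higher. The 7 measured neutrophil markers averaged 4.60 to 5.49 in knockout cells and 4.23 to 4.50 in wild-type cells. Of these 7, 0 passed in limma and 2 had an unadjusted p under 0.05, against 16.4% of all genes. S100a8 stood at 2.28 and S100a9 at 1.53, while the granule genes Mpo and Elane lay near or below the array medians. The 5 measured B cell markers averaged 5.24 to 5.41 in knockout cells and 5.55 to 5.66 in wild-type cells. Of these 5, 0 passed in limma and 2 had an unadjusted p under 0.05, against the same 16.4%. The part of these cells in the values of Itgae and Tgfbi was not tested.

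**Figure D4:**
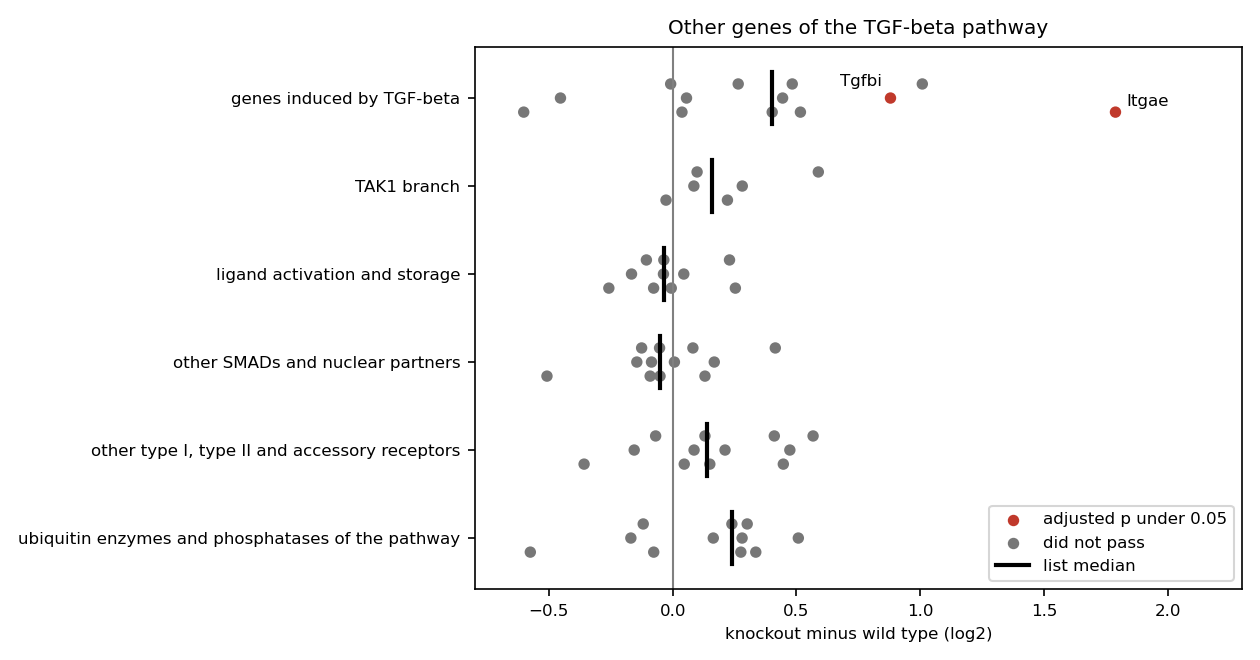
Difference of knockout minus wild type on the log2 scale (horizontal axis) for the 64 other pathway genes in 6 lists; each point is a gene on its brightest probe set, red where the limma adjusted p is under 0.05, and black bars mark list medians. Only Itgae at 1.79 and Tgfbi at 0.88 are red, and Map3k7 is left out.

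In the other 5 lists 0 genes besides Map3k7 passed in limma, and the counts at an unadjusted p under 0.05 are given with each list. Of 12 further receptors and coreceptors, all measured, 9 had a positive difference, where 46.1% of all genes did, and the median was 0.14. Of these 12, 4 had an unadjusted p under 0.05, against 16.4% of all genes. The smallest p-values belonged to the activin type I receptor Acvr1b and the bone morphogenetic protein type II receptor Bmpr2. Acvr1b read 6.63, 6.74 and 6.70 in knockout cells, against 6.29, 6.37 and 6.17 in wild-type cells, a difference of 0.41 (SE 0.10, limma adjusted p = 0.104), although its dimmer probe set gave -0.22. Bmpr2 read 8.44, 8.54 and 8.83 in knockout cells, against 8.24, 8.07 and 8.16 in wild-type cells, a difference of 0.45 (SE 0.12, adjusted p = 0.161). In both the groups did not overlap, as in 21.2% of all genes.

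Of 10 measured genes for storing and activating the ligand 4 lay below the median level, and the median difference was -0.04. Of these 10, 0 had an unadjusted p under 0.05. That count and those of the lists that follow stand beside the 16.4% of all genes. The latent TGF-beta binding protein gene Ltbp2 stood at -0.26 and the protease gene Furin, whose product cleaves the TGF-beta precursor, at 0.23 (limma adjusted p = 0.445 and 0.541). Of 12 other SMADs and nuclear partners 1 had an unadjusted p under 0.05 and the median was -0.05, with the corepressor Tgif2 at -0.51 (limma adjusted p = 0.194) and Ski, the relative of Skil, at 0.41 (adjusted p = 0.561). Tgif2 read 6.15, 6.10 and 6.31 in knockout cells, against 6.71, 6.40 and 6.97 in wild-type cells, with no overlap. Of 11 ubiquitin enzymes and phosphatases of the pathway 3 had an unadjusted p under 0.05 and the median was 0.24. The ubiquitin ligase Wwp1 stood at 0.51 and Ppm1a, a phosphatase reported to act on SMADs, at 0.34 (limma adjusted p = 0.212 and 0.217). The other of the 3, Smurf1, went the opposite way, at -0.58 (limma adjusted p = 0.274). In the TAK1 branch the 6 genes besides Map3k7 had a median of 0.16, 2 had an unadjusted p under 0.05 and 0 passed in limma.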

How the data were processed

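The authors deposited 1 table of log2 expression values for 6 arrays, made by RMA (background correction, quantile normalization and probe set summary). Per the submitters' processing notes the software was Affymetrix Expression Console 1.1; the log2 scale was read from the values, which ran from 2.58 to 13.9. The table held 45141 probe sets, of which 104 Affymetrix controls were left out. The platform annotation gave 28898 probe sets 1 symbol, 551 several and 15588 none, and only those with 1 symbol were named. Updating symbols through Entrez IDs changed 0. Where a gene had several probe sets, the brightest on average over the 6 arrays stood for it.

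Differences were fitted as knockout minus wild type with limma 3.58.1 in R 4.3.3 (lmFit and eBayes, no covariates), with Benjamini-Hochberg adjustment over 45037 probe sets and a threshold of 0.05. The fit was tested on simulated data. For 3 against 3 arrays an exact permutation test cannot go below p = 0.1, so none was used. Arrays carry no read depth, their number limits the precision, RMA compresses differences of dim probe sets, and 0 pairs of arrays were identical. The named genes were Map3k7, every core gene, pathway genes past the threshold or, in a list with none, the 2 with the smallest p, and the 3 genes nearest to Tgfbr2 in pattern. Genes named for a marker list, Smurf1, and those in the other observations, lie outside that rule. The members, gene lists and tests were chosen with earlier results of these data known. Of the listed pathway genes, 7 had no probe set under their symbol and were not analysed here. Alternatives covered the probe sets tested, scaling, variance model, weights for arrays, a block for the replicate number, the threshold, averaging each gene over its probe sets, and each array left out. Same-numbered arrays of the groups correlated in their deviations from group means at 0.0542, 0.133 and 0.322 over all probe sets. The 2 arrays numbered 3 were each other's best match, which did not hold for numbers 1 and 2. The labels state no pairing, so the main fit did not pair the samples by number, and the replicate block stood as an alternative. Figures were drawn with matplotlib 3.10.9.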

Additional observations from a re-analysis of the deposited data

How the results depend on the processing

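The count of core probe sets past the threshold was 0 under all 8 other settings that gave it and in all 6 fits with 1 array left out. The count of other pathway genes was 2, and 0 to 2 with 1 array left out. It was 2 or 3 under the other 9 settings, where the third gene was Id3, called with the replicate block or at an adjusted p under 0.1. Over all probe sets 538 passed, against 993 with the replicate block, 1156 at an adjusted p under 0.1, and 125 to 860 with 1 array left out. The replicate block called 0 of the 18 core probe sets, and 3 of 6 arrays correlated best with the array of their own number. Small differences turned sign. Smad3 stood at -0.037 and Smad4 at -0.0031 with array weights. With 1 array left out the differences ran from -0.28 to 0.40 for Tgfbr1, from -0.058 to 0.10 for Smad2, from -0.16 to 0.23 for Smad3, from -0.11 to 0.22 for Smad4, from -0.069 to 0.25 for Smad6 and from -0.14 to 0.20 for Skil. Tgfbr2 stayed positive at 0.37 to 0.59, and Tgfb1 and Smad7 stayed negative, at -0.45 to -0.16 and -0.31 to -0.06. Centring or renormalizing the arrays moved the difference of knockout minus wild type by a median of 0.01 over all probe sets. The signal of Smad6 and of the dim probe sets was too near the array medians for a difference to be read.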

Other observations

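The 3 inhibitor of DNA binding genes in the list taken here as induced by TGF-beta were singled out after their values were seen. Whether TGF-beta raises these genes, Id1, Id2 and Id3, in these cells was not tested. They are also known as targets of bone morphogenetic protein receptors, and Id2 is required for a branch of dendritic cells. Id3 read 5.09, 4.94 and 5.82 in knockout cells, against 4.22, 4.20 and 4.41 in wild-type cells, a difference of 1.01 that did not pass (SE 0.21, limma adjusted p = 0.0791). Id2 read 12.53, 12.76 and 12.72 in knockout cells, against 12.32, 12.51 and 12.38 in wild-type cells, a difference of 0.26 (SE 0.11, adjusted p = 0.354). Id1, close to the array medians, differed by 0.44 (SE 0.16, adjusted p = 0.309). In all 3 genes the knockout arrays lay above the wild-type arrays. Counting both directions, the groups did not overlap in 21.2% of all genes, so the share with the knockout above is smaller.

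Genes of the same list also differed in the other direction without passing. The cell cycle inhibitor Cdkn2b read 5.64, 5.47 and 5.20 in knockout cells, against 5.37, 5.91 and 6.83 in wild-type cells, which amounts to -0.60 (SE 0.33, limma adjusted p = 0.543). The transcription factor Bhlhe40 differed by -0.45 (SE 0.19, adjusted p = 0.38).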
